A study of Mus musculus with 24 samples.

Results

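The 40 genes described here encode mouse ribosome biogenesis factors, the nuclear proteins that make, modify and assemble the parts of a ribosome. They were taken from a list of mouse symbols and matched by Ensembl gene identifier to the count tables. All 40 were found among the 31062 features counted, and all 40 passed the filter on low counts that left 14622 genes for testing. By role they comprise 3 genes of RNA polymerase I and its regulators, 3 of the box C/D particle, 4 of the box H/ACA particle, 3 nucleolar scaffold or chaperone proteins, 9 factors of the early small-subunit precursor, 5 of late 40S assembly and 13 of 60S assembly.

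Poly-A RNA was sequenced from ID8 p53-/- mouse ovarian cancer cells, a line grown from ovarian surface epithelium and lacking p53. A line edited with a non-targeting guide (sgNTC) was set against an Ifngr1-KO line, which was edited in the gene of the interferon-gamma receptor's ligand-binding chain. Each line was grown attached (adherent plates) or detached (ultra-low attachment plates, ULA) for 48 hours, and recombinant IFN-gamma (100 ng/ml) or the PBS vehicle was present for the last 24 hours. This gave 8 groups of 3 libraries, which the labels call biological replicates without saying whether they are separate cultures. Every group therefore lacks p53, and no library comes from p53-competent cells. Each genotype is represented by 1 edited line, so genotype and line cannot be told apart. A dead-cell removal step was used for ULA cultures alone, so detachment and that step cannot be told apart either. In these bulk samples, fewer cells of a type and less RNA per cell cannot be told apart.

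Ribosomes are built mostly in the nucleolus. RNA polymerase I transcribes the ribosomal RNA precursor, guide RNA particles of the box C/D and box H/ACA classes methylate and pseudouridylate it, and a large processome cleaves it into the precursors of the 40S and 60S subunits, which mature further on the way to the cytoplasm. The pathway is a heavy user of energy and nucleotides, it follows growth signals, and many of its genes are known targets of the transcription factor MYC, which binds DNA with its partner MAX at the sequence CACGTG.

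RefSeq promoter windows (GRCm38.p6, 250 bases before to 50 bases after the start site) were at hand for 34 of the 40 members, and Fbl, Npm1, Rrs1, Gnl2, Rrp12 and Bop1 had none. CACGTG, which reads the same on both strands, was found in the windows of 7 of the 34 members, or 20.6%. The share was 9.74% of the 10879 tested genes with a window and 7.18% of all 27025 windows. These 7 stretches are shown for their letters only. In the culture comparison described afterwards, all 7 members were lower in detached cells, and so were most members whose windows lack CACGTG. Whether the motif has a part in that change was not tested. Capitals mark CACGTG and, where it falls in the same stretch, the letters CCGGAAG. The stretch of Nop2, a 28S rRNA methyltransferase, is chr6:125131783-125131868 on the plus strand and overlaps no annotated exon. That of Utp18, a processome subunit, is chr11:93885767-93885826 on the minus strand and also lies upstream of the gene. The motif of the other 5 lies just after the start site, and their stretches overlap annotated UTR exons. They are chr11:72441355-72441376 for Mybbp1a, chr11:3963965-3963994 for Pes1 and chr11:74898092-74898121 for Tsr1, all on the plus strand. For Pno1 the stretch is chr11:17211540-17211564 on the minus strand, and for Wdr43 it is chr17:71616220-71616249 on the plus strand.
Nop2: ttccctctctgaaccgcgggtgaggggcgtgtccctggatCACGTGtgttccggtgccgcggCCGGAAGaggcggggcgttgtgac
Utp18: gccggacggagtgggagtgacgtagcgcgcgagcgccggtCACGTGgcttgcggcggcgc
Mybbp1a: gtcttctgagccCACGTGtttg
Pes1: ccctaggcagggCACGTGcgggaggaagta
Tsr1: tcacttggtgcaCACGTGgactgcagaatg
Pno1: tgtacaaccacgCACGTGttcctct
Wdr43: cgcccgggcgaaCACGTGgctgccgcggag

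The related letters CACGCG, searched on both strands, were present in 9 of 34 windows (26.5%) against 16.9% of tested genes. CCGGAAG, the core that ETS family factors recognise, was present on either strand in 11 of 34 windows (32.4%) against 17.8% of tested genes. CCAAT was found in 38.2% of the members' windows and 39% of those of tested genes, and TATAAA in 5.88% and 7.66%. The median GC content of the windows was 58.2% for the members and 60.3% for tested genes. Upstream stretches that hold CCGGAAG, here in capitals and read as CTTCCGG on the other strand, are shown for 2 more members. Gar1 encodes a box H/ACA protein (chr3:129831397-129831479, minus strand). It was the 1 member called for IFN-gamma against PBS, in detached sgNTC cells only, where 2.05% of all genes were called. That call was lost in 4 of 6 runs with 1 library left out. Nolc1 encodes a nucleolar chaperone of the guide RNA particles (chr19:46075793-46075846, plus strand). A match describes the letters only; no binding was measured here.
Gar1: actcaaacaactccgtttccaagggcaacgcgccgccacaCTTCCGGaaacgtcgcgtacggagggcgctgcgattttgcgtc
Nolc1: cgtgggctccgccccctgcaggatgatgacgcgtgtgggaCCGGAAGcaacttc

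Library totals ran from 33494774 to 63154942 counts. Ifngr1 transcripts were at 41.8 to 48.1 CPM (library-size-scaled counts, by the trimmed mean of M values) in the adherent sgNTC libraries and at 31.7 to 37.7 CPM in the ULA ones. All 12 Ifngr1-KO libraries were lower, between 13.3 and 16.98 CPM, but not at 0. Replicate 3 of the adherent Ifngr1-KO PBS group and replicate 2 of the detached Ifngr1-KO IFN-gamma group differed most from the other libraries of their own groups, with a chi-square per gene of 20.9 to 27.6 against 7.75 and 7.94 for the remaining pair. Counts of members called in the comparisons that use them are given with and without them, and counts for the other gene lists with all libraries only. Of the 12 epithelial and mesothelial markers, Krt8, Krt18, Krt19, Wt1 and Msln were abundant in every library, and Epcam was at 0 in all 24. Krt7 had 0 to 20 counts per library, Cdh1 8 to 60 and Pax8 0 to 8. Upk3b had 4 to 380 counts, Muc16 0 to 2087 and Lgals7 1008 to 5514. In adherent cells in PBS, 5 of the 10 tested were lower and 1 higher in the Ifngr1-KO line (23.9% and 20.1% of all genes). In ULA cells in PBS, 2 were lower and 4 higher (25.6% and 24.5% of all genes). This marker list, of which 10 passed the filter, summed to 1751 to 2241 CPM in adherent libraries, 2615 to 2915 CPM in sgNTC ULA libraries and 4163 to 4516 CPM in Ifngr1-KO ULA libraries. C1qa, C1qb, C1qc, Cd3e, Cd3g, Nkg7, Lum and Thy1 were at 0 in all 24 libraries, and Ptprc had at most 6 counts. The macrophage list (3 of 10 passed) summed to 10.8 to 16.4 CPM, and to 21.0 to 31.3 CPM in Ifngr1-KO ULA libraries. The endothelial list (2 of 6 passed, mostly Vwf) summed to at most 40 CPM elsewhere and to 75 to 85.6 CPM in those libraries, with at most 1 count of Kdr. The fibroblast list (1 of 6 passed, Dcn) summed to 15.2 to 60.2 CPM in adherent and 89.3 to 98.8 CPM in ULA libraries, and the lymphocyte list (1 of 8 passed) to at most 0.52 CPM. The mitochondrial share of counts was 1.96% to 2.94% in adherent and 3.31% to 6.12% in ULA libraries, and neither its part nor that of the markers in the results was tested.

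Almost every ribosome biogenesis gene took a smaller share of the measured RNA in detached cells. In the sgNTC line in PBS, 38 of the 40 members were lower in ULA than in adherent culture, 28 of them by more than 2-fold, 1 was higher (Polr1a) and 1 was not called (Nop10). The median log2 fold change of the members was -1.25, against 0.03 for all genes tested. In this comparison 32.1% of all genes were called lower and 32.5% higher (edgeR quasi-likelihood test, adjusted p under 0.05 over all genes). In the Ifngr1-KO line, 38 members were lower and none higher, with a median of -0.97 against -0.00 for all genes, and 31.1% of all genes were called lower and 29.6% higher. Nop10 and Polr1a were the exceptions there. The largest falls were those of Rrp9, Rrp12 and Wdr12 in the sgNTC line and of Wdr12, Utp14a and Rrp9 in the Ifngr1-KO line.

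The members' summed level shows the size of the fall. The 40 genes together held 9740 ± 361 CPM (SD, n = 3) in adherent sgNTC cells in PBS and 3893 ± 50.3 CPM in detached ones. The Ifngr1-KO sums were 9109 ± 237 and 4312 ± 23.2 CPM. As a share of raw library counts, the members took 0.890% to 0.965% of every adherent library and 0.398% to 0.455% of every ULA library, with no overlap. The share of the 79 cytosolic ribosomal protein genes, the products assembled by this pathway, was 3.58% to 4.29% in adherent and 1.77% to 2.37% in ULA libraries. Npm1 and Ncl alone made up 52.9% of the members' sum in adherent sgNTC cells in PBS and 44.9% in detached ones.

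**Figure D1:**
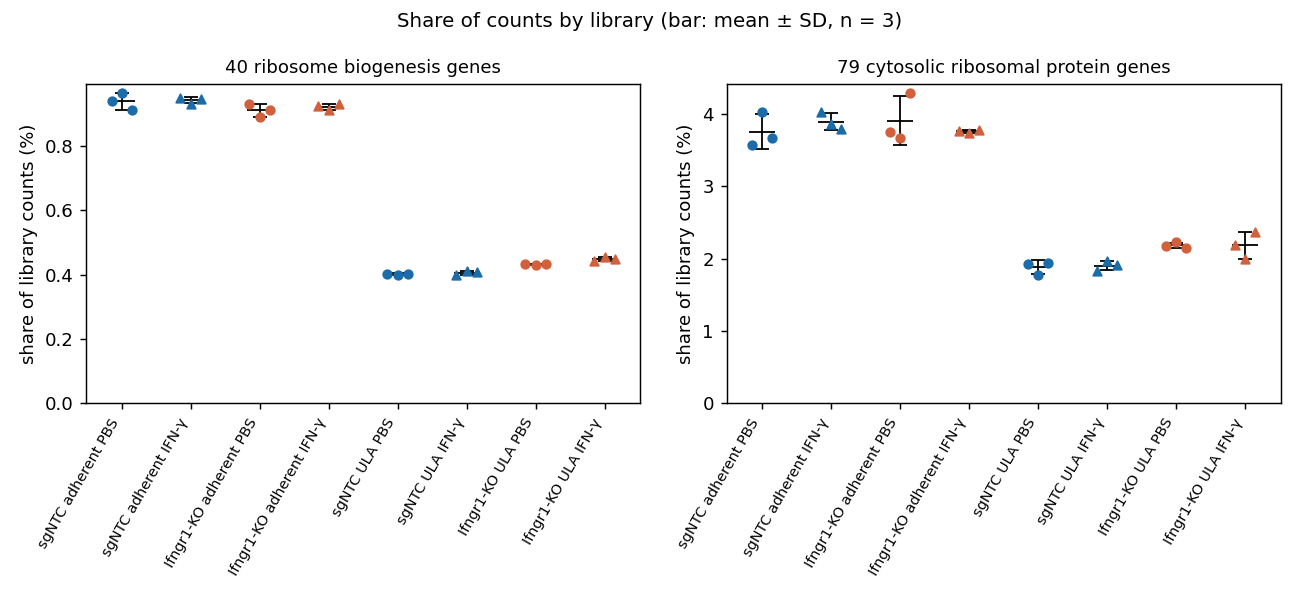
Share of raw library counts (%, y axis) taken by the 40 ribosome biogenesis genes (left) and by 79 cytosolic ribosomal protein genes (right) in each of the 24 libraries, by group (x axis). Points are libraries (circles PBS, triangles IFN-gamma, blue sgNTC, orange Ifngr1-KO) and bars are mean ± SD of 3; for the ribosome biogenesis genes the adherent libraries sit between 0.890% and 0.965% and the ULA libraries between 0.398% and 0.455%.

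The fall was the same in sign with IFN-gamma present, in libraries that share none with the PBS comparison. In the sgNTC line under IFN-gamma, 38 members were lower and Polr1a higher (median -1.27), against 32% of all genes called lower and 32.6% higher. For the Ifngr1-KO line under IFN-gamma, 37 were lower (median -0.90), against 30.9% of all genes called lower and 29.3% higher, and Nhp2, Nop10 and Polr1a were not called. The same 38 members were lower under PBS and under IFN-gamma in the sgNTC line, and 37 in the Ifngr1-KO line. How many of all genes were lower under both treatments was not counted. Across the 40 members, the log2 fold changes of both treatments had a Pearson r of 0.98 in the sgNTC line and 0.98 in the Ifngr1-KO line, a description over genes that share libraries and depth. Without replicate 3 of adherent Ifngr1-KO PBS the count in that line was 38, and without replicate 2 of detached Ifngr1-KO IFN-gamma it was 37.

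**Figure D2:**
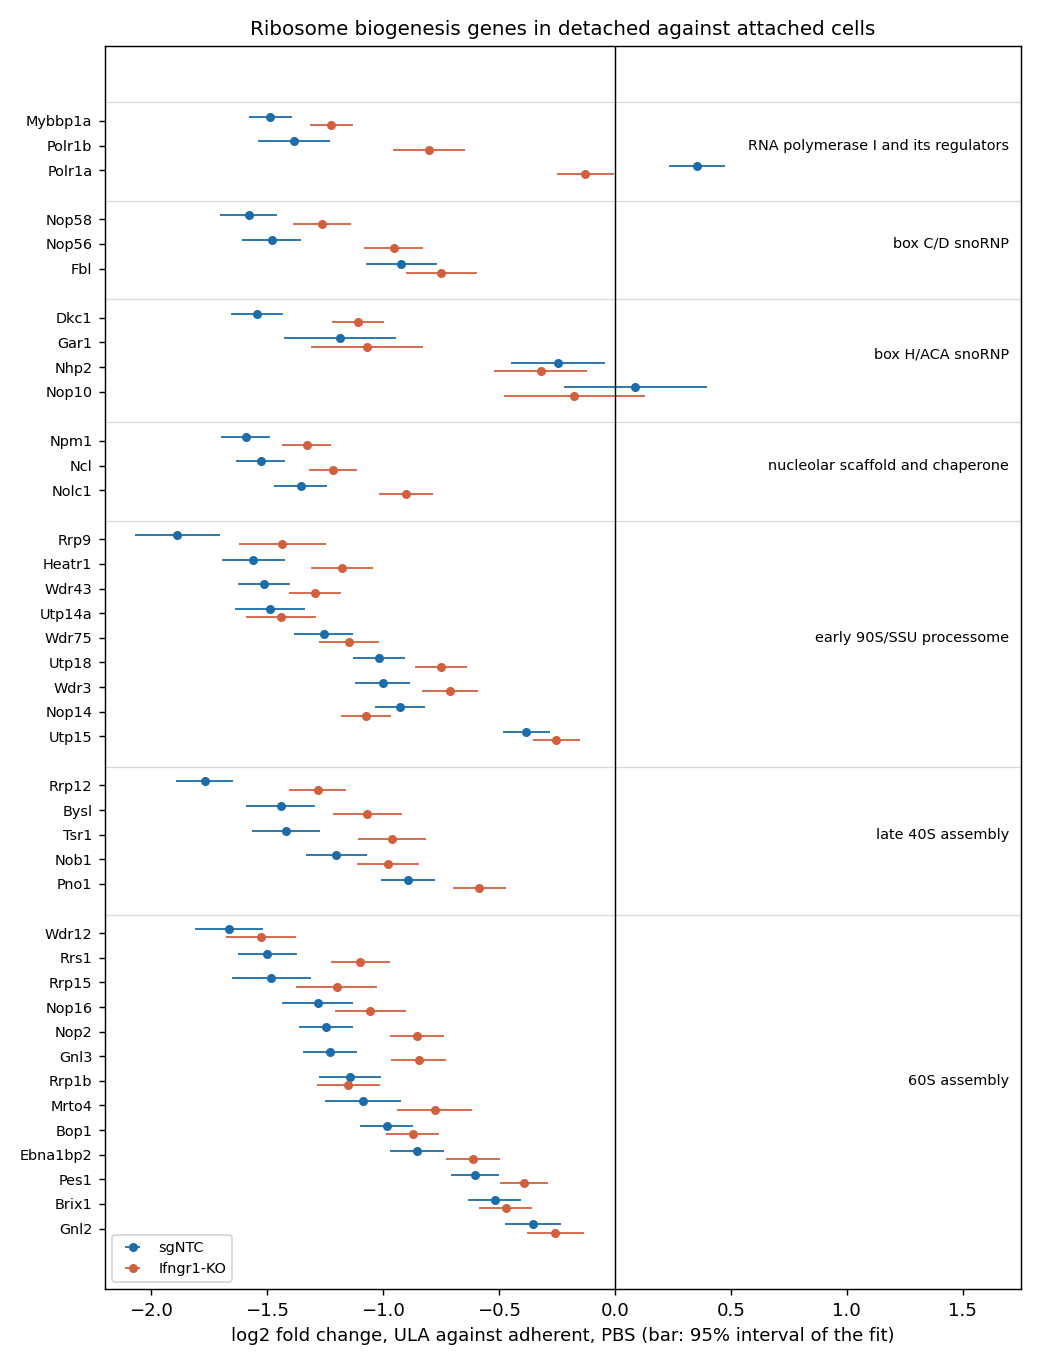
Log2 fold change of each of the 40 members in ULA against adherent culture in PBS (x axis), grouped by role, in the sgNTC line (blue) and the Ifngr1-KO line (orange). Points are the fitted values and bars their 95% intervals; 38 members lie below 0 in both lines, and Polr1a lies above 0 in the sgNTC line, at 0.35.

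The members of RNA polymerase I parted, and those of the box H/ACA particle, given below, were also uneven. Polr1b, the second-largest subunit (chromosome 2, 129100995 to 129126594, plus strand), stood at 50.9, 51.9 and 49.8 CPM in adherent sgNTC cells and at 20.3, 20.6 and 17.5 CPM in detached ones. The Ifngr1-KO line had 43.6, 46.6 and 42.5 CPM attached and 25.1, 26.4 and 24.7 CPM detached. The groups did not overlap in either line. The log2 fold change was -1.39 ± 0.08 (SE; adjusted p = 2.36e-17) in sgNTC and -0.80 ± 0.08 (adjusted p = 4.14e-11) in Ifngr1-KO cells. Mybbp1a, a nucleolar MYB-binding protein that associates with the polymerase and precursor rRNA, went from 562.8 ± 6.28 to 200.7 ± 5.95 CPM in the sgNTC line.

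Polr1a, the largest subunit of the same enzyme (chromosome 6, 71909053 to 71984935, plus strand), moved the other way in the sgNTC line. It was at 161, 158.7 and 155.4 CPM in adherent cells and at 213, 203.9 and 189.6 CPM in detached cells, so every ULA library was above every adherent one (0.35 ± 0.06, adjusted p = 3.54e-06). Under IFN-gamma the sgNTC values were 160.4, 145.6 and 161.1 CPM attached and 206.3, 208.7 and 196.7 CPM detached (0.39 ± 0.06, adjusted p = 6.83e-07). In the Ifngr1-KO line it was at 145.1, 147 and 125.5 CPM attached and 127.2, 126.6 and 128.4 CPM detached, groups that overlap (-0.13 ± 0.06, adjusted p = 0.0654), and under IFN-gamma it was not called there either (adjusted p = 0.347). The exons of Polr1a overlap those of Gm26628 on the opposite strand. Reads were counted without strand and with only the paired-end option set. In that setting featureCounts leaves out a read that overlaps exons of more than 1 gene. The Polr1a counts therefore miss its shared exon stretches. The same holds for 18 of the 40 members, each of which overlaps an exon of at least 1 gene on the other strand.

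The box C/D particle methylates ribosomal RNA, and its 3 measured proteins all fell. Fbl (fibrillarin, the methyltransferase; chromosome 7, 28169710 to 28179269, plus strand) stood at 93.9, 114 and 107.6 CPM attached and at 58.3, 53.2 and 54.8 CPM detached in the sgNTC line. Its log2 fold change was -0.92 ± 0.07 (adjusted p = 1.09e-12), the smallest fall of the 3. The scaffold proteins Nop56 and Nop58 fell by more, to 35.8% and 33.4% of their adherent levels. Nop56 in the Ifngr1-KO line kept 51.6% of its adherent level, from 176.3, 162.8 and 184.5 CPM to 94.9, 92 and 83.1 CPM.

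The box H/ACA particle, which isomerises uridines, was uneven. Dkc1, its pseudouridine synthase (dyskerin; chromosome X, 75095854 to 75109777, plus strand), went from 118.4, 118 and 115.7 CPM to 38.2, 40.1 and 42.6 CPM in the sgNTC line (-1.54 ± 0.06, adjusted p = 1.1e-22). Ifngr1-KO cells went from 98, 98.6 and 101.1 CPM to 44.1, 46.6 and 47.3 CPM. Neither pair of groups overlapped. Gar1 fell by 1.19 and by 1.07 on the log2 scale in the sgNTC and Ifngr1-KO lines. The small core proteins Nhp2 and Nop10 moved little. Nhp2 kept 84.3% of its adherent level in the sgNTC line (adjusted p = 0.0315) and 80.1% in the Ifngr1-KO line (adjusted p = 0.00627). Nop10 in Ifngr1-KO cells was at 31.8, 29.6 and 32 CPM attached and 27.1, 28.2 and 27.4 CPM detached, which do not overlap but were not called (adjusted p = 0.317). Its sgNTC values were 21.8, 21.8 and 21.3 CPM attached and 26.5, 18.1 and 24.2 CPM detached, groups that overlap (0.09 ± 0.15, adjusted p = 0.63; 95% interval -0.22 to 0.40). So subunits of 1 particle had fitted changes from -1.54 to 0.09 in the same libraries.

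Npm1 and Ncl were the most abundant members, and both were lower in ULA culture, as was the third nucleolar protein, Nolc1. Npm1 (nucleophosmin, a histone and ribosomal protein chaperone; chromosome 11, 33152287 to 33163206, minus strand) stood at 2724, 2922 and 2540 CPM attached and at 866.1, 909.2 and 939.2 CPM detached in the sgNTC line (-1.59 ± 0.05, adjusted p = 1.18e-23). Ncl (nucleolin, which binds precursor rRNA; chromosome 1, 86344719 to 86359400, minus strand) stood at 2453, 2486 and 2344 CPM and at 814.1, 862.8 and 848.5 CPM (-1.53 ± 0.05, adjusted p = 2.56e-23). Both thus kept close to 34% of their adherent level, 33.2% for Npm1 and 34.7% for Ncl. Ifngr1-KO cells kept 39.8% and 43.0%. Nolc1 kept 39.1% in the sgNTC and 53.5% in the Ifngr1-KO line. Per kilobase of exon, Npm1 was the most abundant member in adherent sgNTC cells in PBS at 1024 CPM per kb, followed by Ncl at 238 and Mybbp1a at 97.0. Wdr12 was the lowest at 6.84 and Rrp1b next at 7.43 CPM per kb, on an exon length that counts all annotated exons of a gene.

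All 9 members of the early small-subunit processome, which cleaves and folds the 18S end of the precursor, were lower in ULA culture in both lines. Rrp9, the U3 snoRNP protein (chromosome 9, 106475963 to 106485424, plus strand), had the largest fall of all members in the sgNTC line. It went from 37, 41.3 and 40.1 CPM to 11, 11.1 and 9.69 CPM (-1.89 ± 0.09, adjusted p = 4.07e-19), or 27.0% of the adherent level. Heatr1, a large scaffold of the processome (chromosome 13, 12395027 to 12440289, plus strand), went from 137.6, 119.5 and 135.8 CPM to 46.9, 44.8 and 41.5 CPM (-1.56 ± 0.07). No ULA library reached an adherent library for either gene. Utp14a, a processome subunit, fell in both lines, by 1.49 ± 0.07 in sgNTC and by 1.44 ± 0.07 in Ifngr1-KO cells. Utp15 fell least of the 9, from 89.4, 91.8 and 87.9 CPM to 65.1, 71.3 and 70.2 CPM in the sgNTC line. Its log2 fold changes were -0.38 ± 0.05 and -0.25 ± 0.05 in the sgNTC and Ifngr1-KO lines.

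The 5 late 40S factors also fell. Rrp12, an export and maturation factor (chromosome 19, 41862852 to 41896153, minus strand), stood at 82.8, 88.7 and 86.9 CPM attached and at 26.5, 24.3 and 24.8 CPM detached in the sgNTC line (-1.77 ± 0.06, adjusted p = 3.9e-23). Ifngr1-KO cells had Rrp12 at 86.7, 84.9 and 87.7 CPM and at 34.6, 35.8 and 36.2 CPM (-1.28 ± 0.06, adjusted p = 3.45e-19). The attached levels of the lines overlapped and the detached ones did not. Nob1, the endonuclease that makes the mature 18S end (chromosome 8, 107412486 to 107425051, minus strand), went from 88.8, 92.3 and 87.6 CPM to 39.8, 39.7 and 37.2 CPM (-1.20 ± 0.06). Its partner Pno1 fell least of the 5, to 53.8% of the adherent level in the sgNTC and 66.6% in the Ifngr1-KO line.

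Among the 13 factors of 60S assembly all were lower in ULA culture in both lines, with sgNTC medians of -1.15 and a range from -1.67 to -0.35. The PeBoW complex, which is needed for the 28S side of the precursor, shows the spread. Wdr12 (chromosome 1, 60069785 to 60098645, minus strand) went from 79.8, 88.8 and 76.7 CPM to 26.1, 26.2 and 25.0 CPM in the sgNTC line (-1.67 ± 0.07, adjusted p = 2.14e-20). Bop1 went from 113.6, 117.4 and 107.2 CPM to 56.1, 56.2 and 58.5 CPM (-0.99 ± 0.06). Pes1 (pescadillo; chromosome 11, 3963975 to 3980004, plus strand) went from 166.1, 167.3 and 164.2 CPM to 109.7, 114.2 and 103.2 CPM (-0.61 ± 0.05, adjusted p = 1.18e-12). The 3 subunits thus kept 31.5%, 50.5% and 65.8% of their adherent levels, with no overlap between cultures for any of them. The nucleolar GTPase Gnl3 fell by 1.23 and its relative Gnl2 by 0.35 on the log2 scale.

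**Figure D3:**
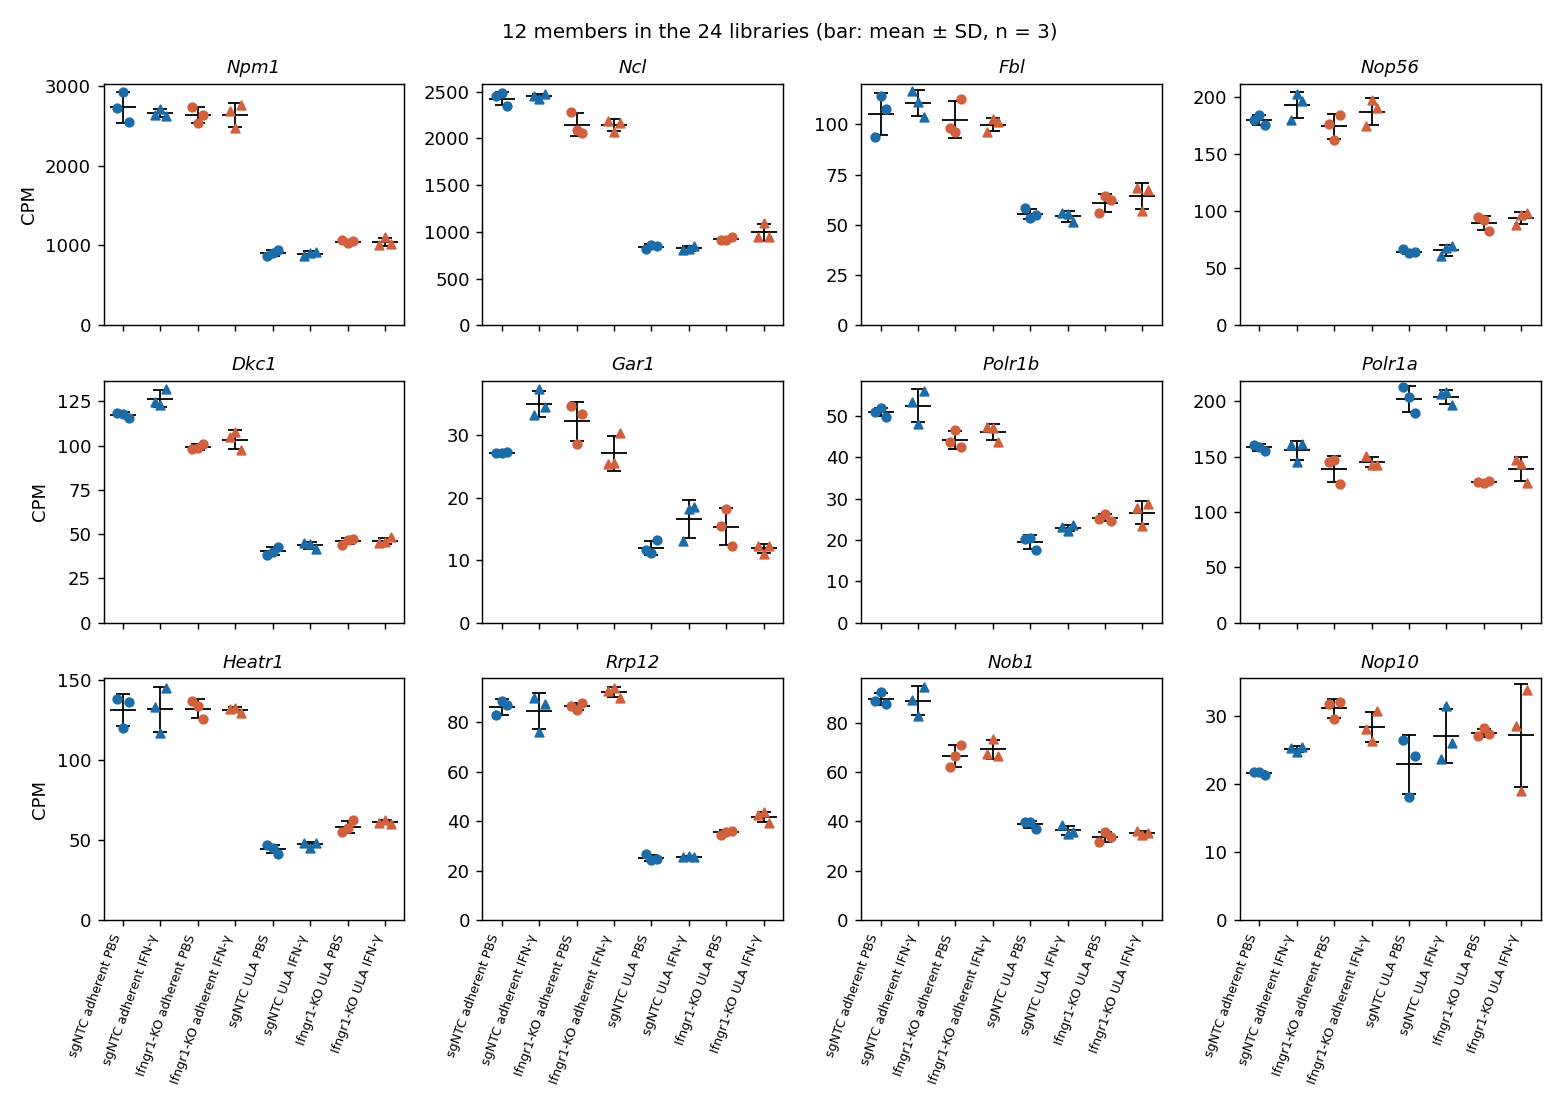
CPM (y axis, linear from 0) of 12 members in each of the 24 libraries, by group (x axis). Points are libraries (circles PBS, triangles IFN-gamma, blue sgNTC, orange Ifngr1-KO) and bars are mean ± SD of 3; Polr1a is higher in the detached sgNTC groups (189.6 CPM and above), Nop10 overlaps between cultures in sgNTC cells in PBS, and the other 10 are lower in ULA than in adherent groups of their line.

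The fall was smaller in the Ifngr1-KO line. Of the 40 members, 36 had a larger log2 change in size in the sgNTC line in PBS, a count not made over all genes. The difference between the lines, tested as an interaction, was called for 24 members, against 27.8% of all genes. In 23 the Ifngr1-KO line fell less (16.6% of all genes were called in this direction), and the other was Polr1a (11.2% in that direction). The median difference was 0.26 on the log2 scale, or 1.20-fold, against 0.01 for all genes. It was largest for Polr1b (0.58 ± 0.11, adjusted p = 9.08e-05), Nop56 (0.53 ± 0.09, adjusted p = 2.05e-05) and Rrp12 (0.49 ± 0.09, adjusted p = 4.03e-05). For Polr1a it was -0.48 ± 0.08 (adjusted p = 3.95e-05). Without replicate 3 of the adherent Ifngr1-KO PBS group, 26 members were called.

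The IFN-gamma libraries, which are separate from those in PBS, were tested in the same way. There 30 members were called, 29 of them in the direction of a smaller fall in the Ifngr1-KO line, against 32.3% of all genes called, 19% in that direction and 13.3% in the other. The median was 0.32 against 0.00 for all genes. A set of 22 members was called higher in both treatments and Polr1a lower in both, and the Pearson r across the 40 members was 0.87. The share of all genes called alike in both treatments was not counted. The 3 largest were Rrp12 (0.58 ± 0.09), Nop56 (0.56 ± 0.09) and Nop2 (0.54 ± 0.08). Without replicate 2 of the detached Ifngr1-KO IFN-gamma group, 33 were called. When library totals replaced the trimmed mean of M values, 16 were called, 14 higher and 2 lower. That scaling shifted the median of all genes by -0.12, and relative to it the members' median was 0.32 under either scaling. In PBS it gave 16 higher and 2 lower.

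**Figure D4:**
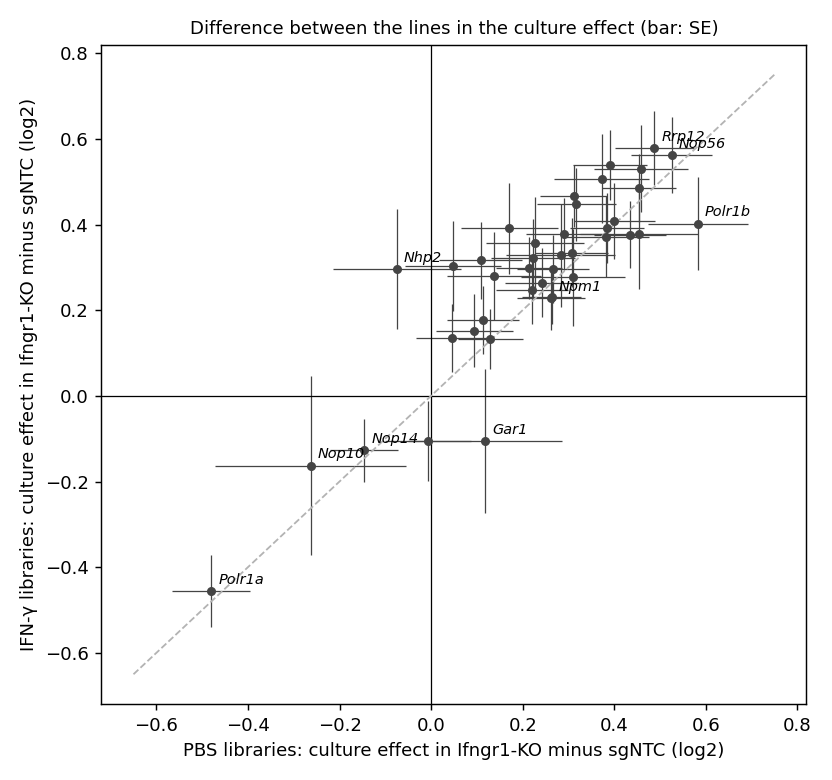
Difference between the lines in the culture effect for the 40 members, as the Ifngr1-KO log2 fold change less the sgNTC one, in PBS libraries (x axis) and in IFN-gamma libraries (y axis). Points are members, bars are SE and the dashed line marks equality; most members lie above 0 on both axes, up to 0.58, and Polr1a lies at -0.48 and -0.46.

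Side by side in 1 culture, the members were mostly higher in the Ifngr1-KO line when detached. Attached, their medians lay nearer to those of all genes. In adherent cells in PBS, 14 members were lower and 5 higher in the Ifngr1-KO line, with a median of -0.06 against -0.02 for all genes. The background was 23.9% of all genes lower and 20.1% higher. In ULA cells in PBS, 25 were higher and 5 lower, with a median of 0.19 against -0.02, where 24.5% of all genes were called higher and 25.6% lower. Under IFN-gamma the adherent comparison gave 12 lower and 3 higher members (23.1% and 20.2% of all genes), and with library totals 10 lower and 8 higher. By the trimmed mean of M values, the members' median in that comparison was -0.04 against -0.01 for all genes. The ULA comparison gave 24 higher and 5 lower under IFN-gamma (27.6% and 27.2% of all genes). Without replicate 3 of adherent Ifngr1-KO PBS the first count was 11 lower and 3 higher, and without replicate 2 of detached Ifngr1-KO IFN-gamma the last was 27 higher and 5 lower.

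Rrs1, Ncl, Nop2, Nolc1, Dkc1, Polr1b and Gnl3 were lower in the attached and higher in the detached Ifngr1-KO cells in PBS, each called both times. Over all genes, 23.9% were called lower attached and 24.5% higher detached. The share of all genes called both times in this way was not counted, so these members are not shown to stand out. Nop2, for example, stood at 146, 149.3 and 138.2 CPM in attached sgNTC and at 122.8, 122.5 and 130.1 CPM in attached Ifngr1-KO cells (-0.21 ± 0.06, adjusted p = 0.00309). Detached, it stood at 59.8, 61.9 and 61.3 CPM and at 68.6, 69 and 70 CPM (0.18 ± 0.06, adjusted p = 0.00893). The lines did not overlap in either culture. Ncl was not called in attached cells without replicate 2 or 3 of the Ifngr1-KO group, and Polr1b kept its call there only when replicate 2 of the Ifngr1-KO group was left out, not when any other of the 6 libraries was.

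A few members differed between the lines in the same direction in both cultures in PBS. Wdr12 was at 58.5, 61.6 and 56.3 CPM in attached Ifngr1-KO cells against 76.7 CPM or more in sgNTC (-0.48 ± 0.07, adjusted p = 1.06e-06). Detached, it was at 18.8, 20.4 and 21.9 CPM against 25.0 CPM or more (-0.34 ± 0.08, adjusted p = 0.000305). Wdr75, a processome subunit, was lower in the Ifngr1-KO line attached (-0.45 ± 0.06, adjusted p = 2.9e-07) and detached (-0.34 ± 0.06, adjusted p = 3.17e-05). Nob1 was lower in attached Ifngr1-KO cells at 62.1, 66.4 and 71.2 CPM against 87.6 CPM or more (-0.43 ± 0.06, adjusted p = 1.16e-06), and detached by 0.21 (adjusted p = 0.00967). Its detached difference was not seen under IFN-gamma, where the lines overlapped. Ifngr1-KO cells had 36.15, 34.43 and 35.37 CPM there, and sgNTC cells 38.4, 34.94 and 35.72 CPM.

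In the other direction, Bop1 was higher in the Ifngr1-KO line in every comparison of the lines. It stood at 136.6, 130.2 and 147.7 CPM attached (0.29 ± 0.06, adjusted p = 5.16e-05) and at 79.4, 73.0 and 74.0 CPM detached (0.41 ± 0.06, adjusted p = 2.39e-07). Pno1, Utp18 and Nhp2 were also higher in the Ifngr1-KO line in both cultures in PBS. Pno1 reached 66.4, 62.7 and 62.9 CPM in detached Ifngr1-KO cells against 43.5, 45.9 and 44.6 CPM in sgNTC cells (0.52 ± 0.06, adjusted p = 2.18e-09), the largest difference upward in that culture. Nop10 was at 31.8, 29.6 and 32 CPM in attached Ifngr1-KO cells, above the 21.3 to 21.8 CPM of sgNTC cells (0.52 ± 0.15, adjusted p = 0.00624). Under IFN-gamma Nop10 was not called in attached cells, at 28.1, 26.3 and 30.7 CPM in Ifngr1-KO and 25.3, 24.7 and 25.5 CPM in sgNTC cells. In ULA culture Polr1a was lower in the Ifngr1-KO line by 0.67 ± 0.06 (adjusted p = 2.09e-11), the largest difference in size among the members in PBS. Under IFN-gamma the largest in that culture was that of Rrp12, at 0.70 ± 0.06 (adjusted p = 1.29e-11).

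With IFN-gamma at most 1 member passed the threshold in any of the 4 comparisons with PBS. In adherent sgNTC cells edgeR called none of the 40, while 0.315% of all genes passed; 2 members had an unadjusted p under 0.05, and DESeq2 also called none. In detached sgNTC cells 1 member was called, Gar1, against 2.05% of all genes. edgeR called no member in attached or detached Ifngr1-KO cells, where 0.00684% and 0% of all genes passed, and DESeq2 called none in either. Unadjusted p was under 0.05 for 3 members and 1215 of the 14622 genes in attached Ifngr1-KO cells, and for 14 members and 1103 genes in detached ones. The corresponding counts over all genes were 1071 in adherent and 1924 in detached sgNTC cells, where 6 members had such a p in the detached comparison. The 95% intervals of the members lay between -0.30 and 0.60 in adherent and between -0.38 and 0.72 in detached sgNTC cells. Median changes were 0.02 and 0.01. In Ifngr1-KO cells the intervals lay between -0.49 and 0.34 attached and between -0.62 and 0.49 detached. The medians there were 0.03 and 0.07, against 0.01 for all genes in both, and 33 of the 40 fitted changes in detached cells were above 0. No member was called in attached Ifngr1-KO cells without replicate 3 of the PBS group, nor in detached ones without replicate 2 of the IFN-gamma group.

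Gar1 stood at 11.6, 11.1 and 13.3 CPM in detached sgNTC cells in PBS and at 13.1, 18.2 and 18.5 CPM with IFN-gamma. The groups overlap slightly, and the log2 fold change was 0.47 ± 0.12 (adjusted p = 0.0322). In detached Ifngr1-KO cells it stood at 15.5, 18.2 and 12.3 CPM in PBS and at 12.3, 11.04 and 12.3 CPM with IFN-gamma, a change of -0.36 ± 0.12 (adjusted p = 0.488). The difference between the lines was called (-0.84 ± 0.17, adjusted p = 0.00918), as the only member, against 1.33% of all genes. Without replicate 2 of the detached Ifngr1-KO IFN-gamma group 2 members were called, Gar1 and Nhp2. In adherent cells it was 27.2, 27.1 and 27.3 CPM without and 33.2, 37.4 and 34.5 CPM with IFN-gamma in the sgNTC line, with no overlap but not called (adjusted p = 0.314). It was called there without the filter on low counts and with only the groups compared. The call in detached sgNTC cells was lost without replicate 2 or 3 of the IFN-gamma group or replicate 1 or 2 of the PBS group. Whether the response to IFN-gamma differed between cultures in the sgNTC line, or between lines in adherent culture, was tested as well. edgeR called no member in either test, where 0.0479% and 0.13% of all genes passed. Unadjusted p was under 0.05 for 0 and 5 members, and for 781 and 1630 of all genes, and DESeq2 called 0 and 1 members. Without replicate 3 of the adherent Ifngr1-KO PBS group edgeR still called 0 in the latter.

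The rest of the pathway fell along with the members in detached cells. Over all genes in PBS, 32.1% were called lower and 32.5% higher in the sgNTC line. The shares in the Ifngr1-KO line were 31.1% and 29.6%. Of 42 other small-subunit factors, 38 were lower and none higher in the sgNTC line (median -0.63), and 39 lower and 1 higher in the Ifngr1-KO line. Rcl1, which takes part in the early cleavages, went from 77, 86.9 and 78.2 CPM to 25, 22.8 and 22.5 CPM in the sgNTC line (-1.78 ± 0.07, adjusted p = 6.38e-22). Of 52 other 60S factors tested, 46 were lower and 2 higher (median -0.83), and 45 lower and 3 higher in the Ifngr1-KO line. Ddx21, an RNA helicase of the nucleolus, went from 382.6, 383.7 and 392.9 CPM to 136.7, 135.2 and 138.7 CPM in the sgNTC line, and cultures did not overlap. Sbds, which releases eIF6 from late 60S particles in the cytoplasm, was among the few that rose (0.49 ± 0.07 and 0.40 ± 0.07).

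The remaining polymerase I genes fell less evenly. Of 18, 11 were lower and 3 higher in the sgNTC line (median -0.43), and 12 lower and 2 higher in the Ifngr1-KO line. All genes were called lower in 32.1% and higher in 32.5% of cases in the sgNTC line, and in 31.1% and 29.6% in the Ifngr1-KO line. The shared small subunits Polr2f and Polr2l rose in both lines, whereas Polr2h, another shared subunit, was called lower in both. Taf1d, a subunit of the promoter selectivity factor, fell from 171.8, 177.1 and 166.7 CPM to 79.6, 74.5 and 79.6 CPM in the sgNTC line. The initiation factor Rrn3 fell by 0.50 ± 0.05 in the sgNTC and by 0.17 ± 0.05 in the Ifngr1-KO line. Ubtf, which keeps rDNA open, had a log2 change of -0.10 ± 0.05 (adjusted p = 0.0877) in the sgNTC line. The list for the RNA exosome, which trims the 5.8S end, had 14 tested genes. Of these, 11 were lower and 1 higher in the sgNTC and 10 lower in the Ifngr1-KO line. That list also held Mpp6, called in both lines, which in mouse names a membrane-associated protein and not the exosome protein Mphosph6. These counts are therefore not of exosome genes alone.

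The genes of the ribosome itself fell too. Of 79 cytosolic ribosomal protein genes 78 were lower in detached sgNTC cells (median -1.01) and 77 in detached Ifngr1-KO cells (median -0.78), and none was higher. Rpsa was at 1675, 1851 and 1675 CPM attached and at 663.2, 660.7 and 694.6 CPM detached in the sgNTC line. Ifngr1-KO cells had it at 1702, 1653 and 1792 CPM attached and at 1023, 1054 and 1060 CPM detached. Its fall was smaller in the Ifngr1-KO line by 0.65 ± 0.07 (adjusted p = 6.04e-09). Several of these genes have near-identical processed pseudogenes, so their counts are uncertain.

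MYC network and nucleotide synthesis genes are given for their known ties to the pathway. Myc stood at 256.6, 280.9 and 259 CPM attached and at 60.8, 67.3 and 66.4 CPM detached in the sgNTC line (-2.03 ± 0.09, adjusted p = 2.85e-15). Ifngr1-KO cells had Myc at 217.2, 223 and 207 CPM and at 84.5, 75.8 and 71.6 CPM (-1.48 ± 0.09, adjusted p = 1.34e-12). It thus fell in both lines, and by less in the Ifngr1-KO line (difference 0.55 ± 0.13, adjusted p = 0.00236). Mxd1 and Mxi1, which compete with MYC for MAX, rose in both lines. Mxd1 went from 22.8, 22.2 and 27.1 CPM to 45.8, 66.4 and 42.9 CPM in the sgNTC and from 25.9, 22 and 21.6 CPM to 117.7, 103.7 and 106.5 CPM in the Ifngr1-KO line. Of the 12 network genes, 7 were lower and 4 higher in the sgNTC and 6 lower and 3 higher in the Ifngr1-KO line. The shares over all genes were 32.1% lower and 32.5% higher in the sgNTC and 31.1% and 29.6% in the Ifngr1-KO line. Of 19 nucleotide synthesis genes, 16 were lower and 2 higher in the sgNTC line and 15 lower and 1 higher in the Ifngr1-KO line. Cad, the first enzyme of pyrimidine synthesis, fell by 1.72 ± 0.06 and by 1.57 ± 0.06. Whether the Myc change has a part in the members' change was not tested.

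Proliferation genes moved differently in the lines. Of 18, 14 were lower and none higher in detached sgNTC cells (median -0.53), against 32.1% of all genes lower and 32.5% higher. In detached Ifngr1-KO cells 8 were lower and 6 higher (median -0.04), against 31.1% of all genes lower and 29.6% higher. Mki67 went from 326.5, 271.3 and 312.9 CPM to 211.3, 212 and 232 CPM in the sgNTC line (-0.48 ± 0.07, adjusted p = 1.25e-07). In the Ifngr1-KO line it went from 275.9, 267.4 and 258.1 CPM to 418.6, 408.3 and 402.6 CPM (0.62 ± 0.07, adjusted p = 6.39e-10). The interaction was called for 13 of the 18 proliferation genes, all less negative or more positive in the Ifngr1-KO line (16.6% of all genes were called in that direction). The part of proliferation in the members' difference between the lines was not tested.

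**Figure D5:**
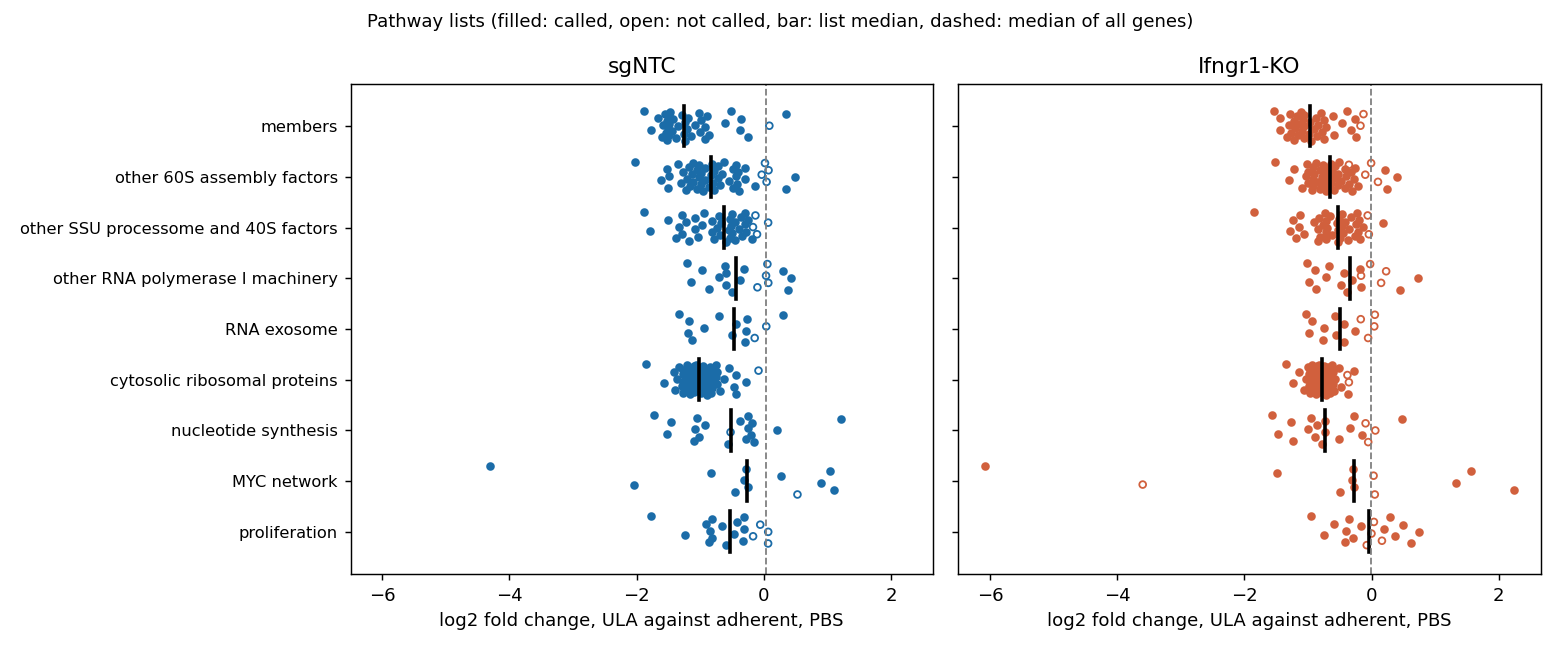
Log2 fold change in ULA against adherent culture in PBS (x axis) of the members and 8 other gene lists (y axis), for the sgNTC line (left) and the Ifngr1-KO line (right). Filled points were called, open points were not, black bars are list medians and the dashed line is the median of all genes; the members' medians are -1.25 and -0.97, and proliferation genes have medians of -0.53 and -0.04.

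The members' profiles over the 8 groups were alike. Each member's 8 group means of log2(CPM + 1) had a median Pearson r of 0.99 with the members' mean profile, to which each contributes, and 37 of 40 were over 0.9. The lowest were Polr1a at -0.39, Nop10 at 0.09 and Nhp2 at 0.69. The 5 tested non-members with the highest r were Aen, Mtfr1, Herpud1, Gapvd1 and Soat2, all at 0.999. The 8 means share libraries and are dominated by the culture difference. Aen encodes a nucleolar exonuclease, and Herpud1 an endoplasmic reticulum protein of the unfolded protein response. In PBS Aen fell by 1.78 in the sgNTC and by 1.36 in the Ifngr1-KO line on the log2 scale, and Herpud1 by 3.94 and by 3.32.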

How the data were processed

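The authors deposited 1 gene table of raw read counts per library. Per the file headers, reads were counted with featureCounts v2.1.1 with only the paired-end option set, on a mouse annotation to which 9 transgenes were added, without strand and with each mate counted, so that 61.3% to 67.2% of values from 1 to 20 were even. Per the submitters' processing notes, the tools were Trimmomatic, HISAT2, SAMtools, featureCounts and DESeq2 on GRCm38/mm10; for tools other than Subread the sources used here give no version. Symbols were assigned to 30934 of 31062 features, and no column of values was left unused.

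Counts were tested with edgeR 4.0.16 (limma 3.58.1, R 4.3.3), with 1 quasi-likelihood model of the 8 groups over all 24 libraries, TMM scaling (factors 0.958 to 1.05), filterByExpr with a minimum count of 10, and Benjamini-Hochberg adjustment over 14622 genes. A gene was called at an adjusted p under 0.05. CPM, SE and 95% intervals come from the same data and model. p-values measure the spread between these libraries, which may be technical. In simulated data of the sgNTC culture comparison in PBS, 200 of 14622 genes were changed. Of those changed by 1.25, 1.5, 2 and 3-fold, 40%, 52%, 72% and 90% were recovered. The measured comparison called 32.1% of genes lower and 32.5% higher, so these shares are not its recovery rates.

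The members and lists were chosen with earlier results of these data known, and the comparison of culture effects between lines in IFN-gamma libraries was added after seeing the data. Genes are named by a rule: up to 3 of the largest called changes each way per comparison, up to 3 called against the majority, Polr1b, Fbl, Dkc1, Ncl, Npm1, Heatr1, Nob1 and Pes1, up to 4 called genes of each other list with the smallest adjusted p, Myc, the 5 non-members most like the members' profile, and Ifngr1. Other named genes, among them Utp15, Gnl2, Gnl3, Rrn3, Ubtf and Sbds, were chosen after their values were seen. Alternatives were DESeq2 1.42.0, its size factors, library totals, no filter, the compared groups alone, a replicate block, halved counts and leaving out each library.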

Additional observations from a re-analysis of the deposited data

Results flagged for a closer look

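The culture effect differed between the sgNTC and Ifngr1-KO lines, by an interaction test in edgeR with adjustment over all genes, for 24 of the 40 members in PBS. The difference (the Ifngr1-KO log2 fold change less the sgNTC one) was -0.48 for Polr1a. Among 60S factors it was 0.21 for Pes1, 0.24 for Ebna1bp2, 0.31 for Mrto4, 0.38 for Gnl3, 0.39 for Nop2 and 0.40 for Rrs1. Among processome factors it was 0.22 for Wdr43, 0.27 for Utp18, 0.29 for Wdr3, 0.38 for Heatr1 and 0.45 for Rrp9. The late 40S factors Pno1, Bysl, Tsr1 and Rrp12 differed by 0.31, 0.37, 0.46 and 0.49. The nucleolar proteins Npm1, Ncl and Nolc1 differed by 0.26, 0.31 and 0.45, and the guide RNA particle proteins Nop58, Dkc1 and Nop56 by 0.32, 0.43 and 0.53. Mybbp1a and Polr1b differed by 0.26 and 0.58. In the IFN-gamma libraries 30 members differed.

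The response to IFN-gamma in detached cells differed between the lines for 1 member, Gar1, by -0.84.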

How the results depend on the processing

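With the replicate number as a block, 39 members were called in the culture comparison of the Ifngr1-KO line in PBS in place of 38, and no other count changed. Same-numbered libraries had correlations of -0.061 to 0.052, so no shared deviation was seen. Whether the numbers mark shared days or cultures is not given by the labels, and these correlations cannot decide it. Library totals in place of TMM lowered the members called for a line difference in culture effect under IFN-gamma to 16. For the IFN-gamma response of adherent sgNTC cells, 1 member was called without the filter on low counts and 1 with only the groups compared. For detached sgNTC cells 0 were called with only the groups compared, and 0 to 1 when 1 library was left out. The line difference in the adherent IFN-gamma response gave 1 with DESeq2, 1 without the filter and 1 with only the groups compared, and in detached cells leaving out 1 library gave 1 to 2, the latter without replicate 1 or 2 of the Ifngr1-KO IFN-gamma group.

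Leaving out 1 library gave 38 to 39 members in the culture comparison of sgNTC cells in PBS, 14 to 18 and 26 to 30 in the line comparisons of adherent and detached cells in PBS, and 22 to 26 in the line difference in culture effect in PBS. Of 178 results for named genes, 163 kept direction and call in every setting run. Uncalled differences between the lines in adherent PBS cells changed sign. With library totals they were 0.0155 for Fbl, 0.0027 for Npm1 and 0.0165 for Pes1. With 1 library left out, Fbl ranged from -0.1153 to 0.0438, Npm1 from -0.0767 to 0.0209 and Heatr1 from -0.0331 to 0.0632. The cause was not tested. In the sgNTC culture comparison in PBS the SE of the members was largest for Nop10 (0.15) and Gar1 (0.12).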
